A study of Mus musculus with 24 samples.

Results

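Collagens are the rod-shaped proteins of the connective tissue frame of muscle, and their chain genes were taken here as all protein-coding genes named Col, a type number, a and a chain number. The rule gave 44 genes of the 54532 in the count files: 11 fibrillar chains, 6 type IV chains of the basement membrane and 27 others. Their RNA was measured by RNA-seq in the left gastrocnemius, a fast calf muscle, of wild-type (WT) C57/BL6 mice of both sexes, with 4 libraries in each of 6 groups and a time label of 24 h. Control mice were sedentary and had 2 injections of 20 µl saline at pH 7.2 into that muscle, 5 days apart. The sedentary pain groups had injections at pH 5.0 in place of these, with 6 min of electrically evoked contraction just before the second. The active pain groups were treated likewise after 8 weeks with running wheels. No group had wheels without the pain model, so the effect of running in mice without pain was not measured, and acid and contraction cannot be told apart. Ages are not given in the sources used here. Nothing in the labels says that replicates came from separate animals, so p-values measure only the spread between these samples.

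A collagen molecule is a triple helix of chains, alike or different, in which glycine recurs at a regular step (the Gly-X-Y triplet). Fibrillar collagens such as types I and III form the ropes between muscle fibres and fibre bundles, type IV forms the sheet around each fibre and capillary, and type VI links that sheet to the fibrils. The chains are hydroxylated and folded in the endoplasmic reticulum, trimmed after secretion and crosslinked by lysyl oxidases.

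In the gene models the fibrillar class stood apart. In the longest open reading frame among each gene's GENCODE M21 transcripts, the longest unbroken Gly-X-Y run was 216 to 344 triplets in the 11 fibrillar chains, with a median of 338. It was 39 to 66 triplets in the 6 type IV chains (median 43.5) and 23 to 113 in the 27 others (median 45). The type IV range lay within that of the others. Its helix is cut into shorter stretches than the fibrillar one, a feature known to make the molecule flexible.

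Upstream sequence is shown for Col1a2 and Col16a1, which rose in female sedentary pain, and for Col6a6, which was higher in male than in female controls. It is the part of the 250 bases before the RefSeq start site that lies outside the gene's own GENCODE M21 exons, 5′ to 3′ on the gene's strand, build GRCm38.p6, with capitals for CCAAT and GGGCGG on either strand (ATTGG and CCGCCC when read on the other strand). TATAAA was searched too and had no match in these windows, and no motif match overlapped another. The stretches are chr6:4505370-4505492 on the plus strand, chr4:130047590-130047839 on the plus strand and chr9:105828161-105828335 on the minus strand.
Col1a2: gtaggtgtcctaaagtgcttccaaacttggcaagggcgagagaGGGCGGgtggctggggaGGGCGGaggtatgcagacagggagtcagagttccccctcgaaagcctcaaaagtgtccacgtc
Col16a1: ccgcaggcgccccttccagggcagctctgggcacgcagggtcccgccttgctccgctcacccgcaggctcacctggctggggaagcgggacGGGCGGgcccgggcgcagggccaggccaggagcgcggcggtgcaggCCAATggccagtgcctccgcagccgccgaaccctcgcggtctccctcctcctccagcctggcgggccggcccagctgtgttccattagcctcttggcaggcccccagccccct
Col6a6: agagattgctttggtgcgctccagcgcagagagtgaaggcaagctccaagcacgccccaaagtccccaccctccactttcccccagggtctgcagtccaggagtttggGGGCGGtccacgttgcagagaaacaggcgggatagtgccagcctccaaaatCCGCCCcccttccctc
The fourth sequence is the shared start of Col4a1 and Col4a2, the type IV pair whose ratio varied little across libraries, at chr8:11312801-11312830 on the plus strand, with capitals for the 22 bases transcribed from both strands.
Col4a1 and Col4a2: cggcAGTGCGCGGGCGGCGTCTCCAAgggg

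In Col1a2 the printed GGGCGG matches began 205 and 188 bases before the start site. A CCAAT that began at 109 bases lies in the part of its window that is not printed. The printed stretch lies inside the span of the GENCODE M21 gene, chr6:4504814-4541544. In Col16a1 GGGCGG began at 159 bases and CCAAT at 113 bases, and part of that window is also an exon of a noncoding gene on the opposite strand. In Col6a6 the matches began at 142 bases and, on the opposite strand, at 91 bases. In the full windows of 250 bases, CCAAT stood in 13 of 38 collagen windows (34.2%, 35 members) and in 33.9% of all 32851 windows. GGGCGG stood in 22 of the 38 (57.9%) against 32.7% of all windows, and TATAAA in 5 (13.2%) against 12.4%. A match describes the letters only and is no evidence of binding.

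Library totals ran from 17612139 to 34039699 counts, and collagen genes took 0.0723% to 0.215% of them. The 8 fast fibre markers summed to between 111250 and 254700 CPM (counts scaled to library size) in every library, while 5 of 6 chondrocyte markers averaged under 1 CPM. Female sedentary pain replicate 2 and male sedentary pain replicate 1 stood apart in the ratios and minor chains given below. On the first principal component of all genes, female sedentary pain replicate 1 lay at 28.6 against 97.9 to 153 for the others of its group, and female active pain replicate 3 at 50.8 against -18.0 to 7.07. Male sedentary pain replicate 1 lay at 93.3 against -51.0 to -26.1 and male active pain replicate 2 at 50.5 against -42.1 to -6.16. The female libraries were left out singly, and the male ones, called outlying below, singly and together.

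Per kilobase of transcript, a scale on which genes can be compared, Col3a1 was the most abundant chain, with a mean level of 42.6 CPM per kb over the 24 libraries. Col1a2 followed at 24.4, Col4a1 at 20.7, Col6a2 at 19.8, Col6a1 at 15.6, Col1a1 at 15.3 and Col4a2 at 14.1 CPM per kb. These 7 chains made up 79.6% of the collagen sum on that scale. In CPM, 12 genes averaged at least 20, 17 lay between 1 and 20 and 15 were under 1. Of the chains best known from cartilage, some were near zero, with mean levels of 0.121 CPM for Col2a1, 0.214 for Col9a2, 0.114 for Col9a3 and 0.0121 for Col10a1. The others averaged 0.615 CPM for Col11a1, 2.07 for Col9a1 and 4.69 for Col11a2. Of the 44 members, 33 passed the filter on low counts in females and 36 in males, 38 passed it over all 24 libraries and 6 were tested nowhere (Col2a1, Col6a4, Col9a2, Col9a3, Col10a1 and Col25a1). A member that passed only through a group in which it is high had to differ, so the counts below are of members tested.

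In female sedentary pain both chains of type I collagen were about 2 times their control level. Col1a1 rose 2.12-fold, Col1a2, its partner chain, 1.86-fold and Col16a1, a fibril-associated chain, 1.98-fold. Col22a1, a collagen of the myotendinous junction, fell to 0.446 of control and Col9a1, a fibril-associated chain best known from cartilage, to 0.273. These 5 of 33 members tested (15.2%) passed the edgeR quasi-likelihood test at a Benjamini-Hochberg adjusted p under 0.05, beside 33.5% of all 14511 genes tested. The 3 that rose stand beside 19.6% of all genes and the 2 that fell beside 13.9%. DESeq2 called these 5 with Col5a1, Col14a1 and Col15a1, and 39.8% of all genes, and an unadjusted edgeR p under 0.05 was found for 10 members and 47.6% of all genes. The median log2 change was -0.07 over the members and -0.02 over all genes. The groups of 4 members did not overlap, beside 26.3% of all genes: Col1a1, Col16a1, Col15a1 and Col20a1. In build GRCm38.p6 the genes called are Col1a1 (ENSMUSG00000001506) at chr11:94936224-94953042, Col1a2 (ENSMUSG00000029661) at chr6:4504814-4541544, Col16a1 (ENSMUSG00000040690) at chr4:130047840-130099283, Col22a1 (ENSMUSG00000079022) at chr15:71795795-72034227 and Col9a1 (ENSMUSG00000026147) at chr1:24177610-24252684.

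Col1a1 stood at 71.1, 75.1, 71.8 and 60.7 CPM in the 4 female controls and at 111, 86.4, 182 and 220.1 CPM in sedentary pain. The groups did not overlap, and replicates 3 and 4 of the pain group were the highest. The log2 change of Col1a1 was 1.09 (SE 0.29, edgeR adjusted p = 0.0166). Col1a2 stood at 93.6, 108, 94.4 and 88.6 CPM in controls and at 148, 86.8, 233 and 257 CPM in sedentary pain. Pain replicate 2 lay below every control and the other 3 above all of them, with a log2 change of 0.90 (SE 0.28, edgeR adjusted p = 0.0317). Col16a1 was less abundant, at 3.81, 3.36, 3.71 and 4.95 CPM in controls and 5.82, 5.14, 7.90 and 12.8 CPM in sedentary pain. Its groups did not overlap, and the log2 change was 0.98 (SE 0.30, edgeR adjusted p = 0.0292).

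Col22a1 was at 26.2, 29.0, 11.9 and 17.4 CPM in female controls and at 12.02, 11.5, 9.13 and 5.43 CPM in sedentary pain. Control replicate 3 lay within the pain range, and the log2 change was -1.17 (SE 0.30, edgeR adjusted p = 0.0147). Col9a1 was at 2.86, 2.103, 1.44 and 0.886 CPM in controls and at 1.06, 0.350, 0.356 and 0.212 CPM in pain, a log2 change of -1.87 (SE 0.54, edgeR adjusted p = 0.0232). Pain replicate 1 lay above the lowest control.

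**Figure D1:**
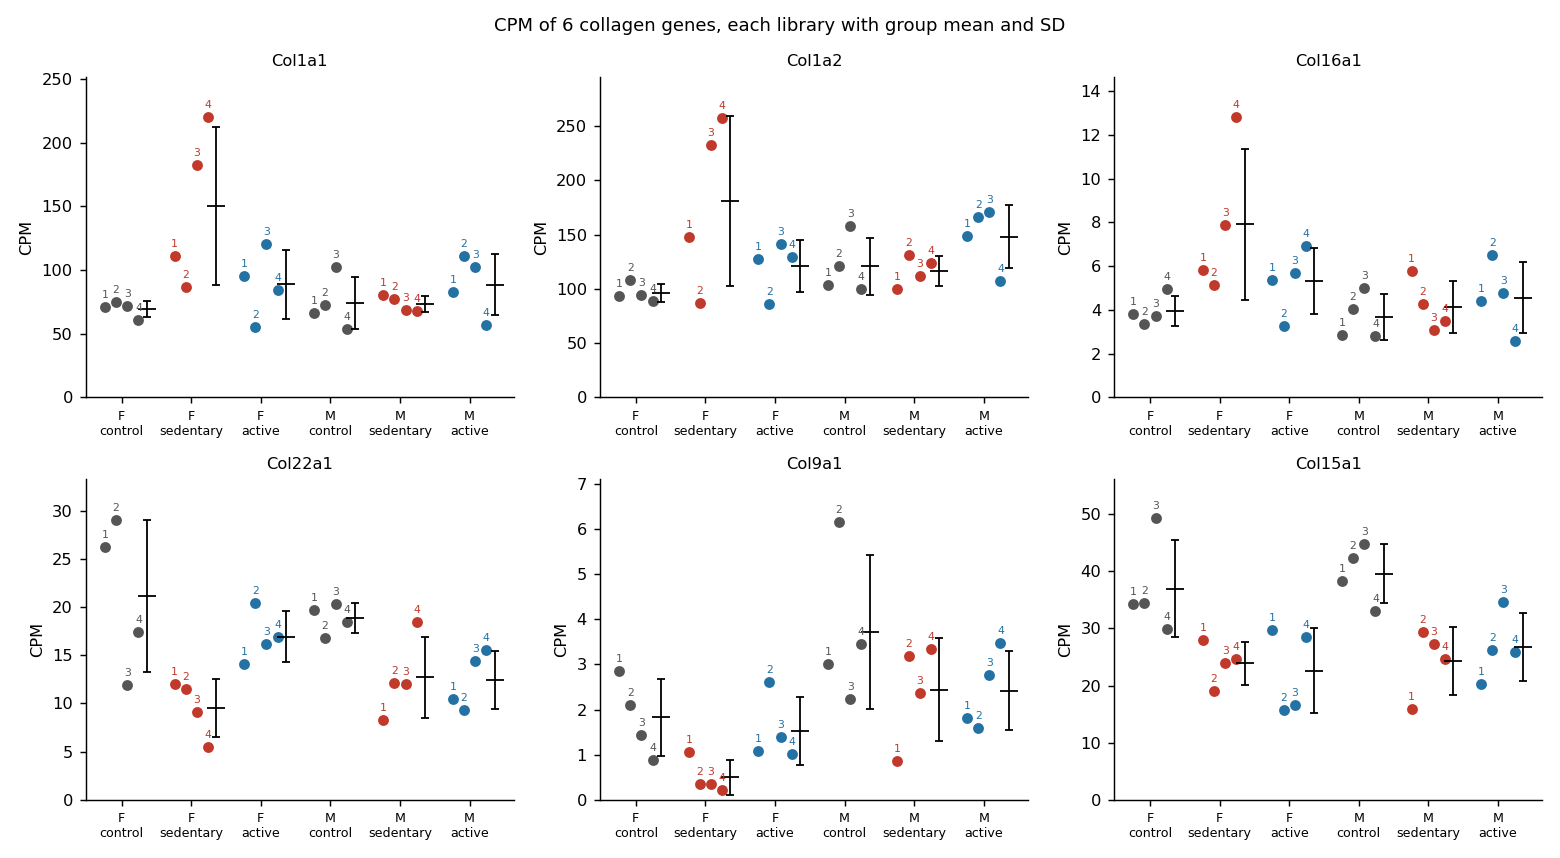
CPM of Col1a1, Col1a2, Col16a1, Col22a1, Col9a1 and Col15a1 in the 24 libraries, by sex and group (F female, M male). Numbers are replicates, and black bars are the group mean with SD over 4 libraries. Replicates 3 and 4 of female sedentary pain stand highest for the first 3 genes, with Col1a1 at 182 and 220.1 CPM.

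Other fibrillar chains had positive changes that did not pass the test. Col3a1, the chain of type III collagen, was at 179, 169, 250.2 and 192 CPM in female controls and at 275, 121, 603 and 394 CPM in sedentary pain. Both the lowest and the highest of these 8 values were in the pain group, and the log2 change was 0.80 (SE 0.37, edgeR adjusted p = 0.103). Col5a1, of the type V collagen that seeds fibrils, was at 31.7, 31.3, 34.2 and 30.2 CPM in controls and at 42.6, 29.5, 55.4 and 58.6 CPM in pain, a log2 change of 0.53 (edgeR adjusted p = 0.0512). Col5a2, its partner chain, was at 21.7, 23.0, 28.6 and 27.04 CPM in controls and 30.4, 12.9, 57.3 and 44.5 CPM in pain. As for Col1a2, Col3a1 and Col5a1, pain replicate 2 was below all controls for Col5a2, whose log2 change was 0.51 (edgeR adjusted p = 0.234). Col5a3 averaged 44.9 ± 9.28 CPM (SD, n = 4) in controls and 46.0 ± 7.93 in pain. Of the 10 fibrillar chains tested, 7 had a positive and 3 a negative change, with a median of 0.48. The 3 negative ones were the minor chains Col11a1, Col11a2 and Col24a1, at -0.83, -0.49 and -0.92 on the log2 scale.

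The size of the changes differed between pairs of replicates. Replicates 1 and 2 of each group carry library numbers of at most 20 and replicates 3 and 4 numbers of at least 25, and what these numbers stand for is not given. Within replicates 1 and 2 the log2 change was 0.43 for Col1a1, 0.21 for Col1a2 and 0.60 for Col16a1. Within replicates 3 and 4 the same genes had 1.59, 1.41 and 1.25. The genes that fell had nearer values, -1.24 and -1.02 for Col22a1 and -1.76 and -2.01 for Col9a1. Within replicates 1 and 2 edgeR called 0 members, beside 1.67% of all genes, and within replicates 3 and 4 it called 10, beside 22.4%. Among these 10, Col4a6 and Col17a1 passed the filter only through control replicates 3 and 4, at 1.405 and 0.825 CPM and at 1.21 and 0.886 CPM. In pain replicates 3 and 4 of both kinds they reached at most 0.385 and 0.182 CPM, so they had to be lower. Without pain replicate 4, 1 member was called (16.9% of all genes), and without control replicate 1, 2 or 3, 3 were (20.9%, 19.2% and 30.8%). Without pain replicate 1 the count was 11 (44.9%), and without pain replicate 2 or active pain replicate 2, which shares the fit, it was 8 (24.4% of all genes, and 4911 of 14863). With 1 surrogate variable 0 members and 0.786% of all genes were called. Among 21 other settings, the call was lost in 3 for Col1a1 and for Col22a1, in 6 for Col16a1 and for Col9a1 and in 10 for Col1a2. Those of Col1a2 were the surrogate variable, the fit to only the groups compared, the replicate block, replicates 1 and 2 alone and leaving out any 1 control or pain replicate 3 or 4.

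Genes that act on collagen chains were called in the same comparison. Of 18 folding and modification genes tested, 9 rose and 0 fell, with a median log2 change of 0.40. Fkbp10, a prolyl isomerase, stood at 5.06 ± 0.748 CPM in controls and 15.8 ± 5.87 in sedentary pain (SD, n = 4), and Plod3, which hydroxylates and glycosylates lysines, at 21.5 ± 1.82 and 57.5 ± 24.4 CPM. P4hb, a subunit of prolyl hydroxylase, went from 236 ± 12.2 to 368 ± 42.9 CPM and Ppib, another prolyl isomerase, from 29.1 ± 7.76 to 88.9 ± 40.9 CPM. Of 10 secretion and processing genes 4 rose and 0 fell (median 0.23). Pcolce, which enhances removal of the C-propeptide, was up by 1.34, the proteases Adamts14 and Bmp1 by 1.96 and 0.83, and Creb3l1, a transcription factor of secretory genes, by 0.64 on the log2 scale. Of 5 crosslinking enzymes 3 rose and 0 fell (median 1.05): Loxl3 by 1.69, Loxl1 by 1.05 and Loxl2 by 0.70. Lox itself had a log2 change of 1.09 with an edgeR adjusted p of 0.0526. Of 15 fibril-binding proteins 3 rose (Fn1 by 1.01, Bgn by 1.55, Mfap5 by 1.09) and Kera, a tendon and corneal proteoglycan, fell by 1.26, with a median of -0.14. Of 10 collagen receptors 3 rose and 1 fell (median -0.09). The leukocyte receptor Lair1 was up by 5.59, the integrin subunit Itgb1 by 0.50 and the uptake receptor Mrc2 by 0.59, and the kinase receptor Ddr1 fell by 0.55. The share of all genes called, 33.5%, stands beside each of these counts. Over these 5 lists and the basement membrane partners, 22 of 73 genes tested rose and 6 fell (38.4% called). These calls are from the fit to the 12 female libraries alone, and their dependence on the setting was not examined. The share of all genes called fell to 1.67% in replicates 1 and 2 and to 0.786% with 1 surrogate variable.

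Basement membrane partners had calls in the opposite direction. Of 15 tested, 0 rose and 4 fell, beside 19.6% and 13.9% of all genes, with a median log2 change of -0.46. Lama2, the laminin chain of the muscle fibre, fell from 26.1 ± 4.83 to 15.7 ± 6.50 CPM (SD, n = 4) and Lama5, another laminin chain, from 21.4 ± 3.32 to 14.8 ± 2.93 CPM. Pxdn, which forms the sulfilimine crosslinks of type IV collagen, fell from 19.9 ± 7.29 to 11.1 ± 3.74 CPM, and the low laminin chain Lamc3 from 0.920 ± 0.552 to 0.130 ± 0.0478 CPM. In the same libraries Col4a1 had a log2 change of -0.10 (SE 0.18) and Col4a2 of -0.07 (SE 0.15), and 5 of 5 type IV chains tested had negative values.

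Markers of other cells moved with these libraries, and their part in the collagen values was not tested. The 8 macrophage markers, all called higher, summed to 477, 660.4, 4147 and 5963 CPM in sedentary pain against 108 to 236 in female controls. The highest sums were in replicates 3 and 4, the libraries highest for the type I chains. The 10 fibroblast and progenitor markers summed to 1233 to 1848 CPM against 1533 to 2976, with Mfap5 called higher and Gsn lower. The 6 tenocyte markers summed to 91.4 to 158 CPM against 58.6 to 140.1, with Scx called higher and Kera lower. Of 8 endothelial markers 3 were called lower (190.2 to 222 against 234 to 282 CPM), as were 5 of 7 pericyte and smooth muscle markers (259.5 to 461 against 534 to 656 CPM) and 5 of 6 adipocyte markers. The adipocyte sums were 293, 156, 3628 and 1928 CPM in female controls and 64.2, 275, 466 and 81.9 in sedentary pain, with control replicates 3 and 4 far above the other 6 libraries. Sox9, the 1 chondrocyte marker tested, was called higher (log2 change 2.22, edgeR adjusted p = 0.0148). The 5 neutrophil markers, all called higher, summed to 251 CPM in pain replicate 2 and to 20.98 to 57.1 in the other 3. Mitochondrial genes took 8.60, 11.02, 8.59 and 8.85% of counts in female controls and 8.22, 3.85, 5.86 and 2.75% in sedentary pain, without overlap and lowest in pain replicate 4. The fast fibre marker sum was 241790, 198780, 163160 and 191820 CPM in female controls and 180310, 222730, 121510 and 111250 in sedentary pain, where replicates 3 and 4 were the lowest of all 24 libraries. The 6 slow fibre markers summed to 265, 810.2, 1068 and 294 CPM in controls and 279.9, 251, 185 and 129 in pain, with a median log2 change of -1.46, and 0 of either list were called. In bulk samples fewer cells of a type and less RNA per cell cannot be told apart.

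Summed over the 11 fibrillar chains, female controls had 445, 456, 541 and 455 CPM and sedentary pain 656, 384, 1183 and 1040 CPM. Of the 4 pain libraries 3 were above every control and 1 below all of them, a difference of 0.66 in mean log2 sum with a pooled SD of 0.53. Female active pain had 523, 382, 604 and 563 CPM, 0.11 above controls (pooled SD 0.23). Male libraries had 456, 537, 626 and 426 CPM under control treatment, 391.8, 561, 499 and 521 in sedentary and 570.3, 677, 747 and 515 in active pain. The male groups overlapped one another. Col3a1 made up 41.4% of this class in CPM, Col1a2 22.8% and Col1a1 15.8%.

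The type IV sum was 212, 199.7, 284 and 292 CPM in female controls, 246, 248, 221 and 216 in sedentary and 193, 132, 163 and 207 in active pain. Every active pain library lay below every sedentary pain library, by 0.44 in mean log2 (pooled SD 0.21), and 3 of the 4 lay below every control. By the mean of log2 CPM over the chains, which weights low chains equally, this difference between active and sedentary pain was 0.13 in place of -0.44, and 3 of the 5 chains tested had a positive change (median 0.0043). Male libraries had 274, 253, 286 and 188 CPM under control treatment, 320.1, 244, 223 and 225 in sedentary and 234, 279.7, 281 and 198 in active pain, with overlap between all groups. Col4a1 and Col4a2, which join in the common type IV molecule, made up 97.3% of the class.

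**Figure D2:**
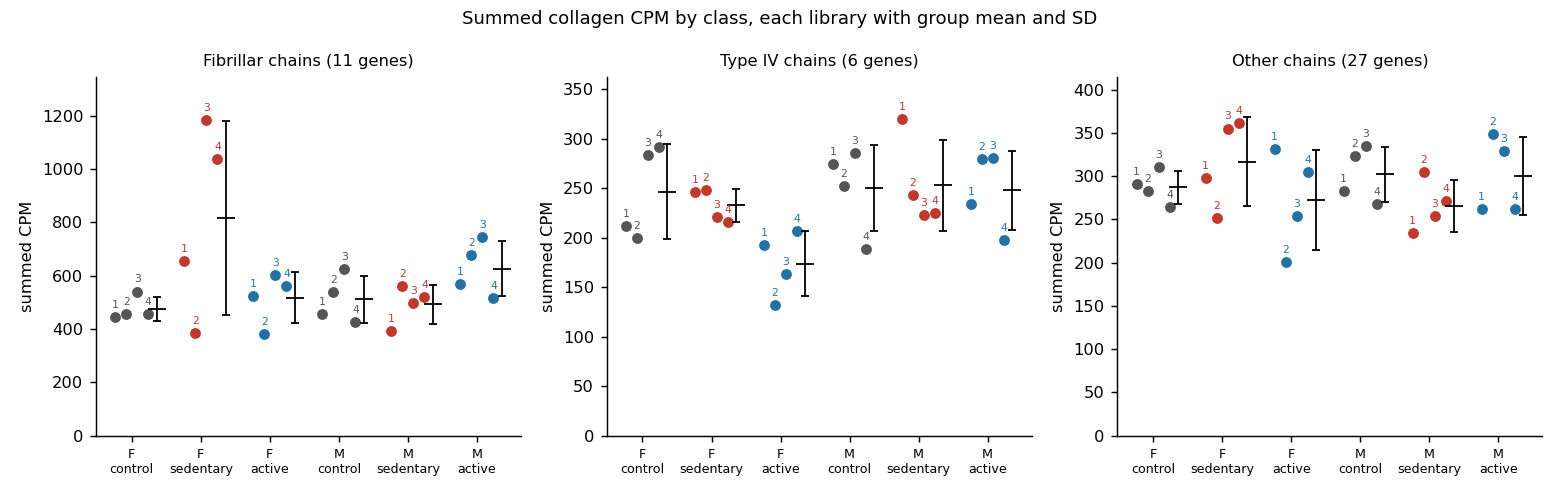
Summed CPM of the 11 fibrillar, 6 type IV and 27 other collagen genes in each of the 24 libraries, by sex and group. Numbers are replicates, and black bars are the group mean with SD over 4 libraries. Fibrillar sums of female sedentary pain span 384 to 1183 CPM, and type IV sums of female active pain are at most 207 CPM.

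In female active pain the type IV chains had lower values than in controls, but edgeR called 0 of 33 members and 0.0% of all 14511 genes. By the unadjusted p, 4 members were under 0.05 (Col4a1, Col4a2, Col15a1 and Col5a3, all negative), beside 7.03% of all genes, and DESeq2 called 0, beside 0.855%. The groups of 5 members did not overlap, beside 5.44% of all genes. Col4a1 was at 123, 113, 176 and 177 CPM in controls, 149, 144, 137 and 124 in sedentary and 115, 76.6, 96.4 and 124 in active pain. Its active pain values overlapped the lower controls, with a log2 change of -0.52 (SE 0.19, edgeR adjusted p = 0.606). Col4a2 was at 84.3, 82.1, 103 and 109 CPM in controls and 73.5, 52.0, 64.0 and 78.9 in active pain, without overlap. Its log2 change was -0.50 (SE 0.15, edgeR adjusted p = 0.565). Col5a3, another type V chain, was at 37.0, 37.2, 55.2 and 50.3 CPM in controls and 33.1, 20.7, 34.1 and 34.2 in active pain, also without overlap (log2 change -0.56, edgeR adjusted p = 0.603). Col1a1 was at 95.0, 55.5, 120.2 and 83.9 CPM in active pain, 3 libraries above and 1 below the control range, with a log2 change of 0.34 (SE 0.28, edgeR adjusted p = 0.837). In the same libraries the macrophage marker sum was 286, 302, 482 and 482 CPM against 111, 108, 193 and 236 in controls, and the neutrophil marker sum 4.75, 46.6, 111 and 5.65 against 0.953, 1.09, 0.898 and 3.51 CPM. Neither overlapped, and 0 of the 8 and 0 of the 5 genes were called. The adipocyte marker sum was 501, 150, 290 and 255 CPM against 293, 156, 3628 and 1928 in controls, with a median log2 change of -2.59 and 0 of 6 genes called. Control replicates 3 and 4, the highest in that sum, were also the highest controls for Col4a1, Col4a2 and Col5a3. The part of these marker lists in the collagen values was not tested.

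Between female active and sedentary pain edgeR called 0 of 33 members, beside 11.9% of all genes. An unadjusted p under 0.05 was found for 11, beside 32.2% of all genes, and DESeq2 called 7, beside 20.7%. The groups of 5 members did not overlap, beside 11.8% of all genes. The smallest edgeR adjusted p, 0.0571, was that of Col18a1, a basement membrane proteoglycan and the source of endostatin. It was at 13.6, 8.40, 10.01 and 13.1 CPM in active and 13.9, 15.6, 20.96 and 18.9 CPM in sedentary pain, without overlap (log2 change -0.61, SE 0.19). Col1a1, Col3a1 and Col5a1 had log2 changes of -0.74, -0.70 and -0.48, and Col22a1 and Col9a1 of 0.85 and 1.63. Leaving out sedentary pain replicate 1 gave 6 calls (29.0% of all genes) and leaving out replicate 2 gave 5 (11.9%). Within replicates 3 and 4 edgeR called 9, beside 15.0%. Leaving out active pain replicate 1, 2 or 4 or sedentary pain replicate 4, fitting only the groups compared, using 1 surrogate variable and taking replicates 1 and 2 alone each gave 0 calls among members and among all genes. Leaving out sedentary pain replicate 3 gave 0 members and 3 genes in all. Of 73 partner genes tested, P4ha1, Plod3, Ppib, Adamts14, Creb3l1, Loxl1, Itgb1 and Lair1 (8 genes) were called lower in active pain and 0 were called higher, beside the 11.9% of all genes. The settings that gave 0 calls among all genes also lost these 8. Of 8 macrophage markers, 7 were called lower too. Sox9, the 1 chondrocyte marker tested, was called lower (log2 change -2.24), and 1 of 7 pericyte and smooth muscle markers higher (median 0.55). The slow fibre markers had a median of 2.67 with 0 called. Mitochondrial genes took 6.67, 11.4, 6.87 and 10.1% of counts in active and 8.22, 3.85, 5.86 and 2.75% in sedentary pain. The part of these in the collagen values was not tested. This comparison shares the sedentary pain libraries with the one against control.

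**Figure D3:**
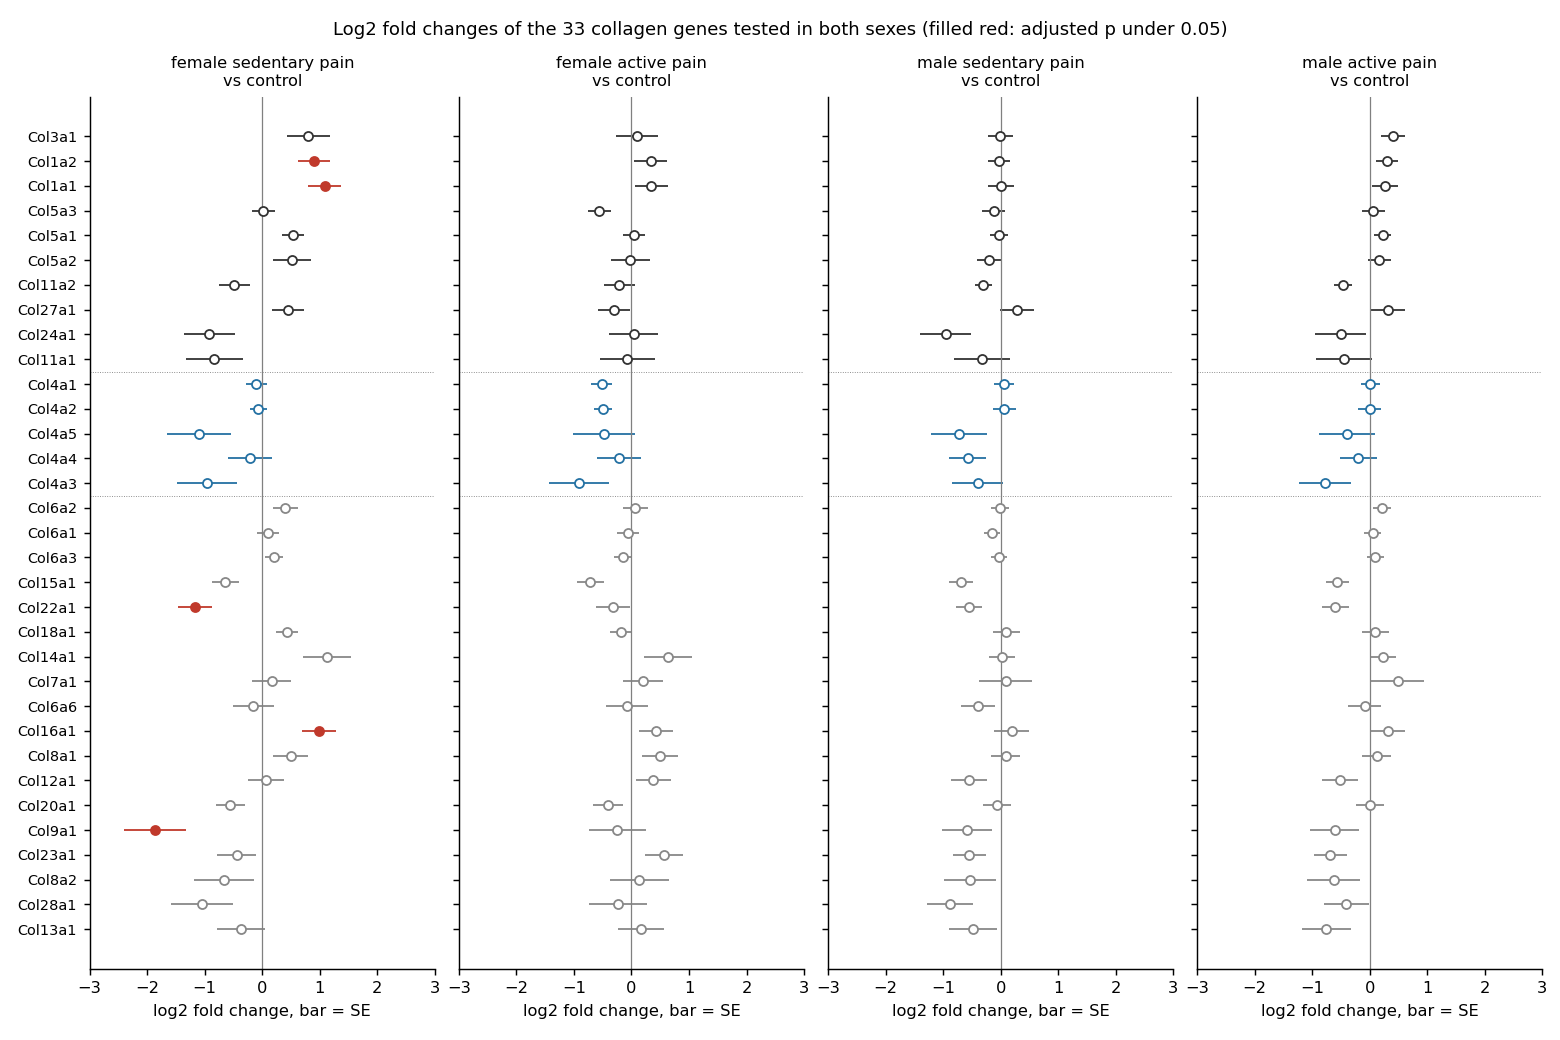
Log2 fold changes with SE (horizontal axis) of the 33 collagen genes tested in both sexes, for 4 comparisons of pain with same-sex control, 4 libraries a group. Genes run down by class (fibrillar, type IV, other; dotted lines between) and by mean CPM within a class, and filled red points mark the 5 with an adjusted p under 0.05, all of them in female sedentary pain.

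In males edgeR called 0 of 36 members in sedentary pain, in active pain and between these, beside 0.0% of all 14404 genes each time. Unadjusted p under 0.05 was found for 4, 4 and 0 members, beside 8.84%, 7.25% and 0.84% of all genes. DESeq2 called 0 members in each, beside 1.87%, 0.882% and 0.0%. The groups of 3, 4 and 0 members did not overlap, beside 8.07%, 10.4% and 0.653% of all genes. Col1a1 was at 66.5, 72.8, 102 and 53.8 CPM in male controls, at 80.2, 77.0, 68.3 and 68.0 in sedentary pain and at 82.7, 111, 102 and 57.2 in active pain. The sedentary pain values lay within the control range, with a log2 change of 0.01 (SE 0.22), and the active pain change was 0.26 (SE 0.22). The female change in sedentary pain exceeded the male one by 1.11 (SE 0.38, edgeR adjusted p = 0.432) for Col1a1 and by 0.96 (SE 0.35, edgeR adjusted p = 0.442) for Col1a2. edgeR called 0 of 38 members and 0.0% of 15103 genes for a sex difference in sedentary pain, active pain or active against sedentary pain. By the unadjusted p, 5, 4 and 10 members were under 0.05, beside 9.57%, 2.03% and 14.7% of all genes. DESeq2 called 0 members, beside 0.0993%, 0.0199% and 0.735%. In the fit to all libraries, calls in females without calls in males are therefore not shown to differ between the sexes. Without both outlying male libraries these 6 member counts were 0, while 3.85% of all genes were called for the sex difference of sedentary pain, 0.0138% in male sedentary and 0.0553% in male active pain and 0.0% in the other 3 comparisons. Within replicates 3 and 4, 5 members and 8.51% of all genes were called for the sex difference of sedentary pain. These were Col1a1, Col1a2, Col5a2 and Col14a1, whose log2 change was more positive in females, and Col17a1, a transmembrane collagen, whose log2 change was more negative in females. Col17a1 passed the filter there only through female control replicates 3 and 4 (1.21 and 0.886 CPM), its highest libraries, so it had to differ. For active against sedentary pain Col3a1, Col5a1, Col5a2 and Col14a1 were called there, beside 7.71% of all genes. Without male sedentary pain replicate 1, 1 member (Col23a1) and 14.1% of all genes were called for the latter difference, and without female sedentary pain replicate 1, 0 members and 4.04%. These members were named after their values were seen.

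Partner genes had 0 calls in the male pain comparisons and in female active pain against control. Pcolce had log2 changes of 0.81 (male sedentary), 1.18 (male active) and 0.90 (female active) against control. For Fkbp10 these were 1.08, 1.09 and 0.80, and the 6 edgeR adjusted p lay between 0.478 and 0.634.

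Col15a1, a basement membrane proteoglycan, had negative changes in each pain group, and edgeR called it in none of them. In female sedentary pain DESeq2 called it (adjusted p = 0.0342), as did edgeR with the GC and length correction (0.0308), with only the groups compared (0.0466) and without pain replicate 1 or active pain replicate 1, 2 or 3. Female controls had 34.2, 34.4, 49.3 and 30.0 CPM, sedentary pain 28.1, 19.0, 24.0 and 24.6 and active pain 29.7, 15.7, 16.6 and 28.5. Male controls had 38.3, 42.4, 44.8 and 33.1 CPM, sedentary pain 15.9, 29.4, 27.2 and 24.6 and active pain 20.3, 26.1, 34.6 and 25.9. Of the 16 pain libraries, male active pain replicate 3 alone reached the range of its controls. The log2 changes from control were -0.65 (sedentary) and -0.71 (active) for females and -0.69 and -0.56 for males. The edgeR adjusted p were 0.0516, 0.586, 0.318 and 0.574 in that order, and the comparisons within a sex share their controls.

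Col22a1 also had negative changes outside female sedentary pain, none of them called. Female active pain had 14.1, 20.4, 16.2 and 16.9 CPM. Male controls had 19.7, 16.8, 20.3 and 18.5 CPM, sedentary pain 8.23, 12.1, 12.03 and 18.4 and active pain 10.4, 9.28, 14.4 and 15.5. The male active pain libraries lay wholly below their controls. The log2 changes were -0.32 (female active, edgeR adjusted p = 0.838), -0.55 (male sedentary, 0.526) and -0.60 (male active, 0.615).

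The ratio of fibrillar to type IV reads within a library needs no scaling between libraries; it was chosen after the class sums had been seen and has no test. It was 2.101, 2.28, 1.91 and 1.56 in female controls, 2.67, 1.55, 5.36 and 4.81 in sedentary and 2.71, 2.88, 3.70 and 2.73 in active pain. Every female active pain library lay above every female control. Male libraries had 1.66, 2.13, 2.19 and 2.26 under control treatment, 1.22, 2.30, 2.24 and 2.31 in sedentary and 2.44, 2.42, 2.66 and 2.61 in active pain. The male active pain libraries likewise lay above all male controls, and above all male sedentary pain libraries. Against controls the mean log2 difference was 0.62 (pooled SD 0.22) in female and 0.31 (0.15) in male active pain. For sedentary pain it was 0.72 (0.61) and -0.07 (0.35). Within replicates 1 and 2 and within 3 and 4 it was 0.35 and 0.88 in female active, 0.37 and 0.24 in male active, and -0.11 and 1.56 in female sedentary pain. The macrophage marker sum did not overlap between active pain and control in females, as given above, or in males, at 252 to 509 against 71.1 to 162 CPM. It was 727, 153, 239 and 524 CPM in male sedentary pain, which overlapped both other male groups. The adipocyte marker sum was highest in female control replicates 3 and 4, at 3628 and 1928 CPM, the female controls with the lowest ratios. Female active pain had 150 to 501 CPM of it. In males it was 69.9 to 322 CPM in active pain and 43.3 to 419 in controls. The part of the macrophage and adipocyte markers in the ratio was not tested.

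**Figure D4:**
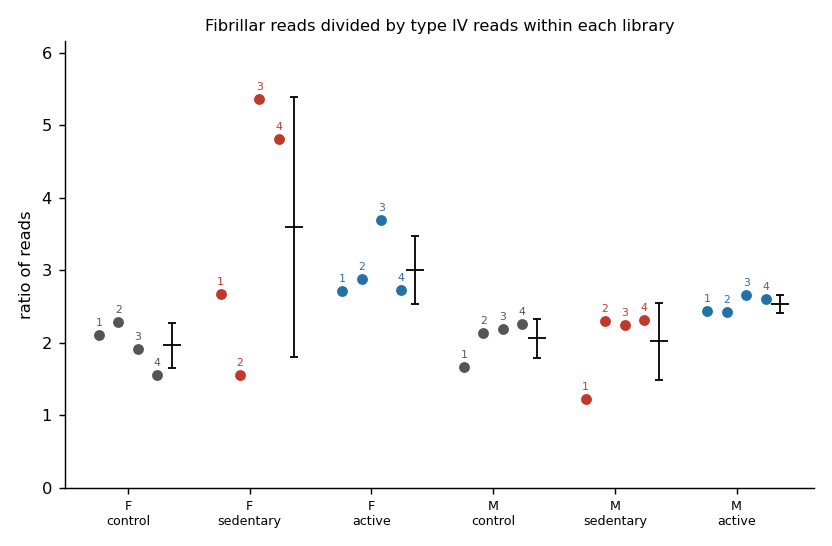
Reads of the 11 fibrillar genes divided by reads of the 6 type IV genes within each of the 24 libraries, by sex and group. Numbers are replicates, and black bars are the group mean with SD over 4 libraries. Active pain libraries lie above the controls of their sex, from 2.71 upward in females and 2.42 upward in males.

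Ratios between partner chains show how far members vary together. Per kb, Col4a1 stood at 1.34 to 1.70 times Col4a2 in all 24 libraries, a 1.27-fold range. Col1a1 stood at 0.481 to 0.898 of Col1a2, and Col3a1 at 1.49 to 4.46 times Col1a1. The lowest Col3a1 to Col1a1 ratios were those of female sedentary pain replicate 2 (1.49) and male sedentary pain replicate 1 (1.60). The same libraries had the lowest Col5a2 to Col5a1 ratios, 0.554 and 0.655, and the lowest Col6a1 to Col6a2 ratios, 0.599 and 0.624. Their neutrophil marker sums, 251 and 298 CPM, were the highest of the 24, and their chondrocyte marker sums of 11.6 and 17.2 CPM were too. Of the 6 chondrocyte markers 5 averaged under 1 CPM, and only Sox9 was tested. Mitochondrial genes took 3.85% and 4.53% of their counts, against 2.75% to 12.6% over all 24. The part of these in the ratios was not tested.

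The type VI chains Col6a2, Col6a1 and Col6a3, 65.0% of the third class, had no call in any comparison. Col6a1 was at 59.4, 64.0, 69.7 and 61.6 CPM in female controls, 66.2, 49.8, 79.2 and 80.3 in sedentary and 79.2, 41.1, 57.2 and 66.9 in active pain. Col6a2 was at 75.8, 66.2, 85.0 and 61.2 CPM in female controls, 89.4, 80.2, 92.1 and 123 in sedentary and 104, 47.2, 68.0 and 82.8 in active pain. Col6a3 was at 42.9, 42.0, 44.8 and 43.96 CPM in female controls, 52.6, 39.7, 63.9 and 47.1 in sedentary and 44.7, 30.7, 37.6 and 44.5 in active pain. The 3 groups overlapped for each chain, and pain replicate 2 was the lowest of its group in both pain groups. In males the 12 libraries ran from 46.7 to 78.8 CPM of Col6a1, 61.4 to 109 of Col6a2 and 35.7 to 60.4 of Col6a3. In female sedentary pain against control the log2 changes were 0.10 (SE 0.19), 0.40 (SE 0.22) and 0.21 (SE 0.16). Col14a1, a fibril-associated chain of tendon and perimysium, was at 10.6, 7.78, 10.6 and 8.86 CPM in female controls and 8.24, 8.70, 36.6 and 30.0 CPM in sedentary pain. Pain replicates 1 and 2 lay within the control range and 3 and 4 far above it (log2 change 1.13, SE 0.42, edgeR adjusted p = 0.0542). In female active pain Col14a1 was at 14.5, 13.5, 13.8 and 17.0 CPM, above all controls, with a log2 change of 0.64 and an edgeR adjusted p of 0.837.

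Male and female controls differed in a chain of the minor type IV network and in a minor type VI chain. Col4a4 joins Col4a3 and Col4a5 in the type IV molecule best known from the kidney glomerulus. It was at 4.23, 4.12, 3.63 and 3.81 CPM in male and 1.69, 1.05, 0.859 and 1.31 CPM in female controls, a log2 difference of 1.68 (SE 0.36, edgeR adjusted p = 0.0110). Col6a6, an alternative to Col6a3 in type VI, was at 8.08, 8.74, 8.24 and 9.75 CPM in male and 5.37, 3.03, 2.19 and 2.75 CPM in female controls, 1.39 higher (SE 0.34, edgeR adjusted p = 0.0283). The sexes did not overlap in either gene. These 2 of 38 members tested, 5.26%, stand beside 2.83% of all 15103 genes. DESeq2 called 2 members and 4.77% of all genes, and an unadjusted p under 0.05 was found for 8 members and 14.9%. The groups of 8 members did not overlap, beside 22.3% of all genes. In build GRCm38.p6 the genes are Col4a4 (ENSMUSG00000067158) at chr1:82448423-82586849 and Col6a6 (ENSMUSG00000043719) at chr9:105687809-105828160.

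The partner chains were also apart without passing the test in the fit to all libraries. Col4a3 averaged 2.15 ± 0.173 CPM in male and 0.804 ± 0.162 in female controls (SD, n = 4), a log2 difference of 1.41 (edgeR adjusted p = 0.150). Col4a5 averaged 4.39 ± 0.633 and 2.29 ± 0.667 CPM, a difference of 0.93 (edgeR adjusted p = 0.421). With only the groups compared, both were called (edgeR adjusted p = 0.00295 and 0.0276), beside 13.5% of all genes. Col4a4 and Col4a3 lie head to head on chromosome 1 with 71 bases between them, and Col4a5 is on X. Within replicates 1 and 2 and within 3 and 4 the sex difference was 1.57 and 1.78 for Col4a4 and 0.96 and 1.88 for Col6a6. The Col4a4 call was lost in 2 of 34 other settings and that of Col6a6 in 9 of 34. The adipocyte marker sum was 43.3 to 419 CPM in male and 156 to 3628 in female controls, with a median log2 difference of -2.29 over the 6 genes and 1 of them called lower in males, and its part was not tested. Without female control replicate 3, 0 members were called (1.29% of all genes), and without female control replicate 2 or 4, or any 1 male control, 1 was (3.37% and 1.56% of all genes, and 1.48% to 1.96%).

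Male sedentary pain replicate 1 was low for these genes, at 0.888 CPM of Col4a4 and 2.95 of Col6a6, where the other 3 libraries of its group had 2.87 to 3.42 and 6.67 to 8.73 CPM. It had 0.363 CPM of Col4a3 and 0.646 of Col4a5. Female sedentary pain replicate 2 was the lowest of all 24 libraries for Col4a3, Col4a4 and Col4a5, at 0.0584, 0.525 and 0.0584 CPM, a count of 1 for the first and last of these.

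**Figure D5:**
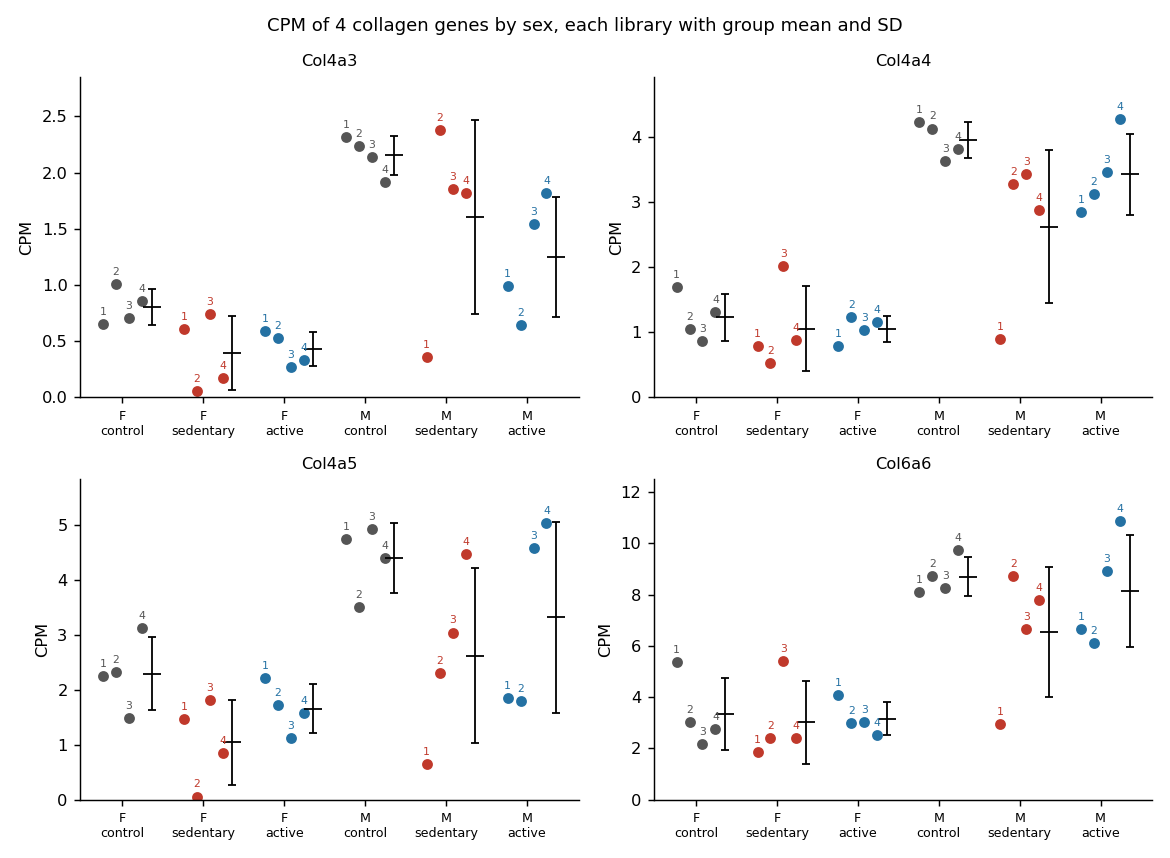
CPM of Col4a3, Col4a4, Col4a5 and Col6a6 in the 24 libraries, by sex and group. Numbers are replicates, and black bars are the group mean with SD over 4 libraries. Male controls lie above female controls in all 4 genes, and male sedentary pain replicate 1 is the lowest male library for each.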

How the data were processed

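RNA was sequenced from 24 left gastrocnemius samples, 4 in each of 6 groups, in a stranded paired library of 100 bases per the labels. The authors deposited whole-number counts per gene for each sample; the submitters' processing notes name HISAT2 2.1.0, Salmon 0.9.1, featureCounts and DESeq2 1.24.0 with the builds mm10 and GRCm38.p6. Which tool counted, its annotation release and its strand setting are not given in the sources used here, so reads of overlapping genes (Col18a1 and Slc19a1, Col4a1 and Col4a2 over 22 bases) could be shared. Of 54532 gene IDs, 54409 matched a symbol.

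Counts were tested with edgeR 4.0.16 (quasi-likelihood, robust, TMM scaling, filterByExpr with a minimum count of 10, two-sided), in the 12 samples of a sex, or in all 24 for sex comparisons, with Benjamini-Hochberg adjustment over all genes tested and an adjusted p threshold of 0.05. CPM are TMM-scaled over all 24 samples. Class sums, ratios and list medians are descriptions with no test. In simulated counts for female sedentary pain against control (14398 genes), 74 of 100 changes of 1 log2 unit and 100 of 100 of 2 units were recovered. These counts had the same dispersion for every gene and no library that stood apart. The shares recovered therefore do not give the power in the real libraries. The alternatives were other scaling, DESeq2 1.42.0, no filter, only the groups compared, a replicate block, 1 surrogate variable (sva 3.50.0), correction for GC content and length, pairs of replicates and leaving each sample out. Leaving out both outlying male libraries and all settings of the ratio were chosen after seeing the data. The members, lists and tests were chosen with earlier results of these data known.

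Members named with their values are those called in any comparison or averaging at least 20 CPM, in order of CPM, given by sample in the groups their result compares; Col9a1 came after the 16 that the rule allowed and was printed after its values were seen, as were the chain ratios, Col14a1, Col18a1, Col4a3 and Col4a5. Partner genes are the up to 4 of each list with the smallest p in female sedentary pain, except that those called in female active against sedentary pain are named because they are few. Precision is limited by counting at low levels: Col4a5 had 1 count in its lowest library. Upstream sequences are from RefSeq (GRCm38.p6), without bases in the gene's own GENCODE M21 exons; coordinates of genes are from GENCODE M21.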

Additional observations from a re-analysis of the deposited data

Results flagged for a closer look

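Among 126 sets of 4 libraries (3 class sums, 17 members and 1 ratio in 6 groups), 6 held a library whose gap to the next, divided by the range, exceeded Dixon's 95% critical value for 4 samples. Chance flags about 1 in 20 groups. The fibrillar sum of female control replicate 3 was 541 CPM where the others lay at 445 to 456. Col3a1 in male active pain replicate 3 was 336 CPM, against 237 to 253 in the others. Col5a3 in female active pain replicate 2 was 20.7 CPM, against 33.1 to 34.2. Col6a6 in female sedentary pain replicate 3 was 5.41 CPM, against 1.85 to 2.40. Col9a1 in female sedentary pain replicate 1 was 1.06 CPM, against 0.212 to 0.356. The ratio of fibrillar to type IV reads in male sedentary pain replicate 1 was 1.22, against 2.24 to 2.31 in the other 3 libraries of its group.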

How the results depend on the processing

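Calls of collagen genes in female sedentary pain against control numbered 5 (33.5% of all genes), and 0 with 1 surrogate variable (0.786%), 8 with DESeq2 (39.8%), 8 with correction for GC content and length (35.7%), 8 without a filter (16.2%), 0 in replicates 1 and 2 (1.67%), 10 in replicates 3 and 4 (22.4%) and 1 to 11 with a library left out (16.9% to 44.9%). For female active against sedentary pain the count was 0 (11.9%), and 7 with DESeq2 (20.7%), 1 with the GC and length correction (13.0%), 9 in replicates 3 and 4 (15.0%) and 0 to 6 with a library left out (0.0% to 29.0%). Between male and female controls it was 2 (2.83%), and 7 with only the groups compared (13.5%), 4 without both outlying male libraries (5.05%), 0 in replicates 1 and 2 (0.08%) and 0 to 2 with a library left out (1.29% to 4.05%). In replicates 3 and 4 alone, 5 members (8.51% of all genes) were called for the sex difference of sedentary pain and 4 (7.71%) for that of active against sedentary pain (0 to 1 with a library left out, beside 0.0% to 14.1% of all genes). Col17a1 among these 5, and Col4a6 and Col17a1 among the 10 above, passed the filter there only through female controls, where they are high. The counts for female active pain, male sedentary pain, male active pain and male active against sedentary pain, and for the sex difference of active pain, were 0 in each setting run. The GC and length correction moved the median change of all genes in female sedentary pain from -0.02 to -0.14 and the share of calls that were higher from 58.5% to 43.9%. The cause of these shifts was not tested.

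Same-numbered replicates did not all deviate together (correlations from -0.32 to 0.42 in females and -0.65 to 0.59 in males), so the numbers were not taken to pair them. Libraries of the same pair of replicates (1 and 2, or 3 and 4) had a mean correlation of 0.18 in females and 0.06 in males, and those of opposite pairs -0.18 and -0.04. The group mean was subtracted first, so the values of opposite pairs largely follow from those of the same pair. With the replicate block, 4 members were called for female sedentary pain against control (25.8% of all genes), 2 for female active against sedentary (11.2%), 1 between controls (2.23%) and 0 in the others.

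With the mean of log2 CPM over members in place of the sum, which weights low chains equally, type IV differences from control became -0.61 (female sedentary), -0.49 (male sedentary) and -0.33 (male active), with 0.13 for female active against sedentary pain and 0.68 between the sexes' controls. The fibrillar difference of male active pain became 0.018, and those of the other chains -0.15 for female sedentary pain against control, 0.17 for female active against sedentary and 0.24 between controls. In replicates 1 and 2 and in 3 and 4, the type IV difference was 0.26 and -0.40 in female sedentary pain and 0.36 and -0.31 between controls, and that of the other chains in female sedentary pain -0.066 and 0.32. The ratio of fibrillar to type IV reads moved to -0.11 and 1.56 in female sedentary and 0.35 and 0.88 in female active pain.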
